A study of Mus musculus with 9 samples.

Results

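The genes described here are Trp53, which encodes the tumour suppressor p53, and 31 genes that p53 is known to activate. They were taken as a named list of 32 and found by gene symbol among the 52636 Ensembl gene IDs of the count table; all 32 were matched. By role, the list holds 3 regulators (Trp53 and its inhibitors Mdm2 and Mdm4), 7 genes of the cell cycle, 12 of cell death, 4 of DNA repair and 6 of metabolism and stress. The filter on low counts kept 16198 genes, 31 of the list among them, and removed Fas.

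RNA was sequenced from 9 samples of mouse embryonic stem cells, 3 libraries from each of 3 lines, all grown untreated in serum with leukaemia inhibitory factor (LIF). The Esrrb+Nanog line is titled NanogKO:Esrrb:Nanog (44JN), the Esrrb line has the title NanogKO:Esrrb (44J), and the Nanog-null line is NanogKO (44C6). The labels give the genotype N{delta}:cE:iN to both the Esrrb+Nanog and the Esrrb line, and N{delta} to the Nanog-null line, so all 3 carry the Nanog alteration and the titles alone set the first 2 apart. What drives the added genes, and which part of Nanog was removed, is not given in the sources used here. Each group is 1 line, so an added gene and the line that carries it cannot be told apart. Nothing in the labels tells whether the replicates came from separate cultures, and p-values therefore measure only the spread between these libraries, which may be technical.

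Before RNA was taken, cells with surface PECAM and without PDGFRA, which marks primitive endoderm, were sorted. The libraries held between 21808120 and 32496267 counts. Levels are given as CPM, the count of a gene scaled to the size of its library. Nanog was at 222, 289.5 and 333 CPM in the Esrrb+Nanog samples, 29.7, 35.1 and 30.4 CPM in the Esrrb samples and 14.3, 14.3 and 16.0 CPM in the Nanog-null samples. Esrrb averaged 1107 ± 48 CPM in the Esrrb+Nanog line, 803 ± 132 CPM in the Esrrb line and 276 ± 25 CPM in the Nanog-null line (SD, n = 3 each). Both genes were highest in the Esrrb+Nanog line and lowest in the Nanog-null line. Nanog was also called higher in the Esrrb line than in the Nanog-null line (log2 change 1.09 ± 0.14, adjusted p = 5.92e-05), although neither title names added Nanog, and Esrrb higher in the Esrrb+Nanog than in the Esrrb line (0.46 ± 0.10, adjusted p = 0.0133). The 8 embryonic stem cell markers were found in every library. Their summed level ran from 4100 to 4366 CPM in the Esrrb+Nanog line, from 4621 to 4796 CPM in the Esrrb line and from 3663 to 3917 CPM in the Nanog-null line.

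p53 is a transcription factor that stress such as DNA damage stabilises. In unstressed cells the ubiquitin ligase Mdm2, with its partner Mdm4, keeps it low, and Mdm2 is itself a p53 target, which closes a feedback loop. Its targets halt the cell cycle, kill damaged cells, repair DNA and adjust metabolism. Mouse embryonic stem cells are known to hold much Trp53 RNA and protein, and p53 is known to repress Nanog after DNA damage in these cells.

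Short p53 binding motifs lie near the start sites of many of these genes. RefSeq promoter windows of 300 bases (build GRCm38.p6, 250 bases before to 50 after a start site) were at hand for 24 of the 32 genes; those of Pmaip1, Tnfrsf10b, Perp, Trp53inp1, Zmat3, Xpc, Ddb2 and Rrm2b were not used here. The p53 half-site, the consensus that p53 binds in pairs and that reads alike on both strands, was searched without any mismatch. It was in a window of 11 of the 24 genes (45.8%), against 9.55% of the 27025 genes in the same table, and in 12 of their 33 windows, against 8.36% of all windows of this length. The genes holding it were Trp53, Mdm2, Cdkn1a, Ccng1, Gtse1, Ckap2, Bax, Ei24, Aen, Polk and Sesn1. A match is a description of the sequence and does not show that p53 binds there, and a window without one says only that these letters are not in it. The 6 windows below were taken from those that hold the half-site. Each is written 5′ to 3′ along the gene's strand with the half-site in capitals. Btg2, Plk2, Tigar and Sesn2, which also differed between lines, had no half-site in their listed windows and are not shown.

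Ccng1, a cyclin, chr11:40755237-40755536, minus strand: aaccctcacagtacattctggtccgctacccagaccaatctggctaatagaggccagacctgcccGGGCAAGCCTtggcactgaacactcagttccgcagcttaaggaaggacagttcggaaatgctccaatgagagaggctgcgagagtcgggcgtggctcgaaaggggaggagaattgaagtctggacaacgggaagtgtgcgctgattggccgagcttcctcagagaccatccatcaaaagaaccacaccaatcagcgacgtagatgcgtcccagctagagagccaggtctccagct

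Cdkn1a, the CDK inhibitor p21, chr17:29090729-29091028, plus strand: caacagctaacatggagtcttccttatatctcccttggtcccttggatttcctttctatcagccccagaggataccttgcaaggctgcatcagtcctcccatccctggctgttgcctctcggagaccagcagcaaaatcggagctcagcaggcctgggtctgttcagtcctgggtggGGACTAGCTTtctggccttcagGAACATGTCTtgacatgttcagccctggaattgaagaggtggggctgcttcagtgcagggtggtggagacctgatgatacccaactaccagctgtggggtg

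Gtse1, a microtubule-binding protein, chr15:85859696-85859995, plus strand: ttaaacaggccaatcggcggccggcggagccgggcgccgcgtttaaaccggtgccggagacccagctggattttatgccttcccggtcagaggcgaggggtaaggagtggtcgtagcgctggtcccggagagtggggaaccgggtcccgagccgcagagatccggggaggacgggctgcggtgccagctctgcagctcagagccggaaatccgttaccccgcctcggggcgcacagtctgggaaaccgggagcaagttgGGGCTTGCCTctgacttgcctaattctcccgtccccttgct

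Bax, a pore-forming death protein, chr7:45466849-45467148, minus strand: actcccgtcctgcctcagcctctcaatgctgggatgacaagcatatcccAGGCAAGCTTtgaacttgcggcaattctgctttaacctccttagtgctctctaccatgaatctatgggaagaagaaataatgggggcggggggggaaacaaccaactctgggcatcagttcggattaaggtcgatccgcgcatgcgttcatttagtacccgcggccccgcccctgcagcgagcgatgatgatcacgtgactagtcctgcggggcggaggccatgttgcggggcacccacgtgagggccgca

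Ei24, a protein of the endoplasmic reticulum, chr9:36797285-36797584, minus strand: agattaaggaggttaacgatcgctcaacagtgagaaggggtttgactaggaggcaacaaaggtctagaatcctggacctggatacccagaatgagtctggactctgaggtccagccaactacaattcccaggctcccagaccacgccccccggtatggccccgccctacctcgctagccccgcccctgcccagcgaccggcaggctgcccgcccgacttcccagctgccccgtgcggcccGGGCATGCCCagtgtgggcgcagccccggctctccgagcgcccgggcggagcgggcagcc

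Aen, an exonuclease, chr7:78895677-78895976, plus strand: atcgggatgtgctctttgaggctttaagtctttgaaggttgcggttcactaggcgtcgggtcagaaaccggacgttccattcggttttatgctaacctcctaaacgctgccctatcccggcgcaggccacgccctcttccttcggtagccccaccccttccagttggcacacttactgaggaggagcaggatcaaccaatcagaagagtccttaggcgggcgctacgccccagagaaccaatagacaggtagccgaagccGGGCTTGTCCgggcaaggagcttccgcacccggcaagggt

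Counted from the start site of the printed window, with bases before it negative, the first bases of the 2 half-sites of Cdkn1a lay at -73 and -51. Those of Ei24, Ccng1 and Bax began at -10, -185 and -201. In Gtse1 and Aen the half-site lay just after that start site, beginning at 10 and 11. From the other listed start site of Aen the same half-site began at -121. The other listed windows of Gtse1 and Cdkn1a held none.

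Among the list, levels spanned a wide range. Divided by the length of each gene's annotated exons, Gtse1, Trp53 and Bax had the highest mean levels in both the Esrrb+Nanog line (105 ± 8.9, 99.8 ± 8.1 and 96.2 ± 4.5 CPM per kilobase, SD, n = 3) and the Esrrb line (124 ± 5.8, 119 ± 2.9 and 104 ± 7.8 CPM per kilobase). In the Nanog-null line the order was Trp53 at 103 ± 3.4, Bax at 74.8 ± 2.8 and Gtse1 at 64.2 ± 3.5 CPM per kilobase. Gtse1 and Trp53 lay within their spread of each other in both lines with added Esrrb, and not in the Nanog-null line. At the other end, Rrm2b had 0.834 ± 0.078, 0.751 ± 0.026 and 0.636 ± 0.091 CPM per kilobase in the Esrrb+Nanog, Esrrb and Nanog-null lines. Fas, a death receptor, was near the limit of detection, with 1, 0 and 3 counts in the Esrrb+Nanog samples, 6, 5 and 3 in the Esrrb samples and 2, 5 and 2 in the Nanog-null samples. A count of 3 corresponds to between 0.0944 and 0.139 CPM here, so no difference in Fas was detectable at this depth.

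**Figure D1:**
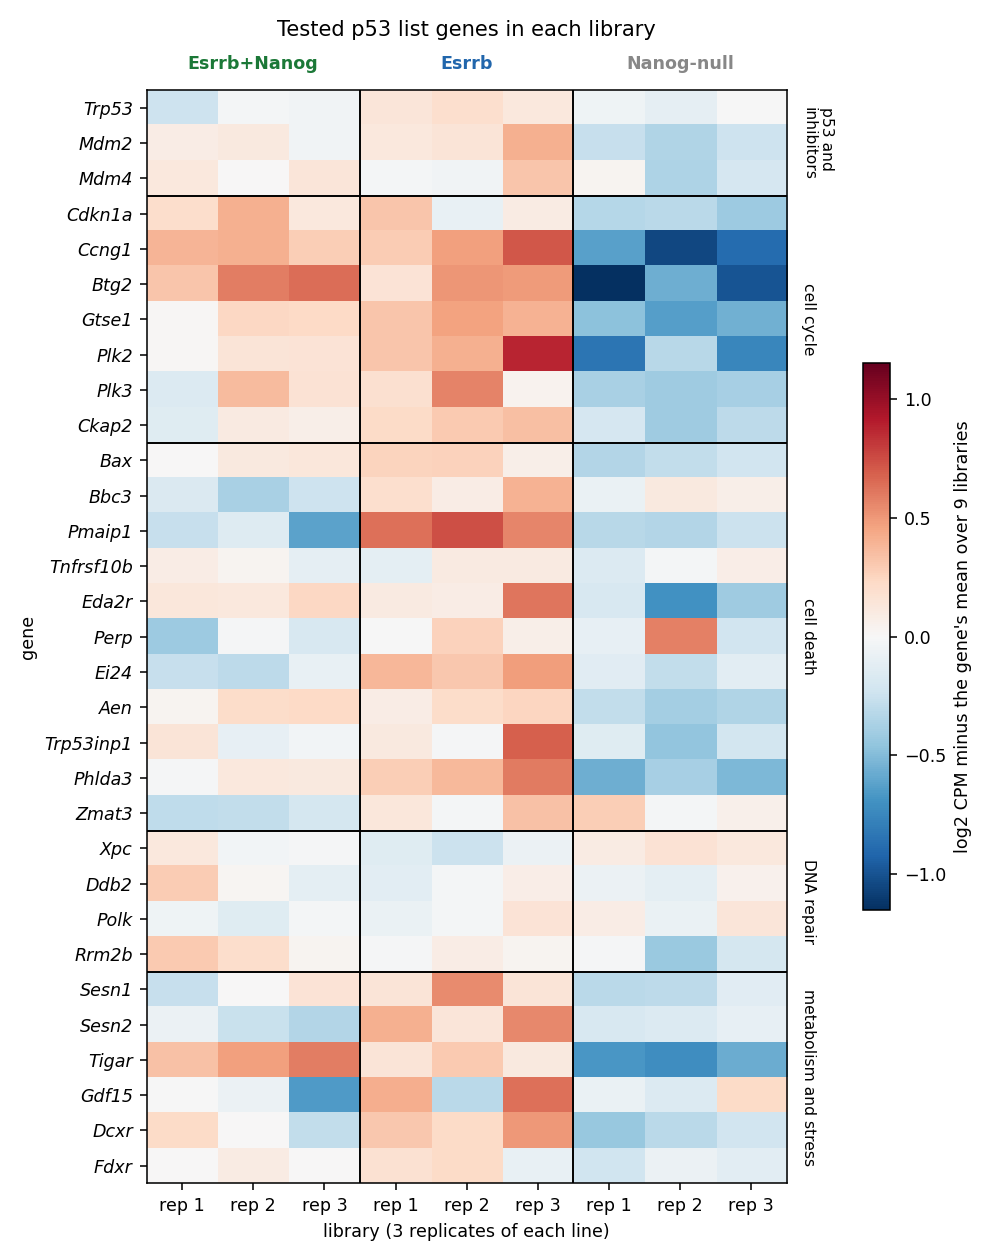
Level of each of the 31 tested genes in each library, as log2 CPM minus the mean of that gene over the 9 libraries (colour scale), with genes grouped by role and the 3 libraries of the Esrrb+Nanog, Esrrb and Nanog-null lines from left to right. The 7 cell cycle genes are lowest in the Nanog-null samples, the red cells of Pmaip1, Ei24 and Sesn2 are in the Esrrb samples, and the DNA repair rows are pale.

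The first comparison set the Esrrb line against Nanog-null cells and so asks how p53 targets stand when Esrrb is added to cells titled NanogKO. Of the 31 tested p53 list genes, 20 (64.5%) were higher in the Esrrb line, 1 was lower and 10 were not called. Over all 16198 tested genes, 48.5% were called by the same rule, an adjusted p under 0.05, with 24.2% higher and 24.2% lower. All 7 cell cycle genes rose, 7 of 11 tested death genes rose, 4 of 6 metabolism genes rose, and none of the 4 repair genes did. The median log2 change over the list was 0.52, against 0.01 over all tested genes, and the list ran from -0.28 to 1.34. In 21 of the 31 every Esrrb library lay above every Nanog-null library, as was the case for 29.4% of all tested genes, and in 1 every one lay below, against 29% of all tested genes. A shorter set of p53 targets had been seen to rise in an earlier reading of these data, so the direction is not independent evidence.

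Trp53 itself (ENSMUSG00000059552, mm10 chromosome 11, 69580359 to 69591873) stood at 475, 493 and 470.5 CPM in the Esrrb samples, against 416, 402 and 429 CPM in the Nanog-null samples. The libraries did not overlap, and the difference was small, a log2 change of 0.21 ± 0.07 (SE, adjusted p = 0.0204). This call was lost when any one of the 3 Nanog-null samples or Esrrb replicate 2 was left out (highest adjusted p 0.0972). Mdm2 (ENSMUSG00000020184, chromosome 10, 117688875 to 117710758) was at 169, 172 and 206.5 CPM in the Esrrb samples and at 129, 122 and 131 CPM in the Nanog-null samples. It rose by 0.52 ± 0.08 on the log2 scale (adjusted p = 0.00028). Mdm4, the partner of Mdm2, averaged 190 ± 28 and 159 ± 22 CPM in the Esrrb and Nanog-null lines, with overlapping libraries, and was not called (log2 difference 0.26 ± 0.11, adjusted p = 0.0724).

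The cell cycle genes held the largest rises of the list. Ccng1 (ENSMUSG00000020326, chromosome 11, 40748552 to 40755311), a cyclin that feeds back on Mdm2, was at 261, 296 and 351 CPM in the Esrrb samples, against 139, 103 and 116 CPM in the Nanog-null samples. The lowest Esrrb library was thus far above the highest Nanog-null library, and the log2 change was 1.34 ± 0.12 (adjusted p = 4.06e-06). Btg2, an antiproliferative protein that promotes mRNA decay, had 19.8, 25.3 and 25.01 CPM in the Esrrb samples and 8.02, 12.1 and 8.97 CPM in the Nanog-null samples (log2 change 1.27 ± 0.16, adjusted p = 4.65e-05). Plk2, a stress-responsive polo-like kinase, had 44.2, 47.1 and 65.0 CPM in the Esrrb samples and 19.7, 28.4 and 21.0 CPM in the Nanog-null samples (log2 change 1.17 ± 0.16, adjusted p = 8.89e-05). These were the only 3 list genes called with a change of more than 2-fold.

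Cdkn1a (ENSMUSG00000023067, chromosome 17, 29090976 to 29100727), the CDK inhibitor p21 and the best known p53 target, changed least among the cell cycle genes. It stood at 30.4, 23.0 and 26.0 CPM in the Esrrb samples, against 19.4, 19.7 and 18.3 CPM in the Nanog-null samples. The groups did not overlap and the log2 change was 0.47 ± 0.11 (adjusted p = 0.00446). Plk3, another polo-like kinase of the stress response, rose by 0.67 ± 0.14 on the log2 scale (adjusted p = 0.00207).

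Gtse1 and Ckap2 are p53 targets that are also made chiefly in dividing cells, Gtse1 as a microtubule-binding protein that restrains p53 and Ckap2 as a spindle protein. Gtse1 averaged 339 ± 16 CPM in the Esrrb line and 176 ± 9.5 CPM in the Nanog-null line (log2 change 0.95 ± 0.07, adjusted p = 1.67e-06). Ckap2 averaged 137 ± 6.2 CPM in the Esrrb line and 91.2 ± 6.7 CPM in the Nanog-null line (log2 change 0.59 ± 0.08). Beside them, 4 of 20 other mitotic genes, of the kind that p53 is known to lower through p21, were higher and 4 were lower, each 20.0% and close to the background. The 3 with the smallest adjusted p were Cdc20, an activator of the anaphase-promoting complex, at 566 ± 46 CPM in the Esrrb line and 294.5 ± 12 CPM in the Nanog-null line (log2 change 0.94), the survival gene Birc5 (0.41) and the centriole kinase gene Plk4 (-0.38).

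Among death genes, the largest changes were in Pmaip1 and Phlda3. Pmaip1 (ENSMUSG00000024521, chromosome 18, 66458533 to 66465565), which encodes the BH3-only protein Noxa, was at 77.2, 83.5 and 73.6 CPM in the Esrrb samples, against 40.0, 39.5 and 42.1 CPM in the Nanog-null samples. No Esrrb library came near a Nanog-null library (log2 change 0.95 ± 0.10, adjusted p = 2.07e-05). Phlda3, which blocks the kinase AKT, was at 52.1, 55.2 and 64.6 CPM in the Esrrb samples and at 28.9, 32.9 and 29.8 CPM in the Nanog-null samples (log2 change 0.91 ± 0.09, adjusted p = 1.02e-05).

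Smaller rises were seen in 5 more death genes. Eda2r, a receptor of the tumour necrosis factor family, rose by 0.71 ± 0.15 on the log2 scale and Ei24, a protein of the endoplasmic reticulum, by 0.57 ± 0.08. Trp53inp1, a p53 cofactor, rose by 0.56 ± 0.16, Aen, an apoptosis-enhancing exonuclease, by 0.52 ± 0.07 and Bax, which opens pores in the mitochondrial membrane, by 0.48 ± 0.07 (highest adjusted p of the 5, 0.0104). Other annotated genes overlap 12.2% of the exons of Bax and 6.66% of those of Ei24. The partner of Bax had 0 CPM in every line and that of Ei24 at most 0.106 CPM. Reads lying in both genes may be counted to neither, so these levels do not show whether reads of Bax or Ei24 were lost. The tested death genes not called were Bbc3, the BH3-only protein Puma (log2 difference 0.19 ± 0.09, adjusted p = 0.104), Tnfrsf10b, a receptor for the death ligand TRAIL (0.06 ± 0.11), Zmat3, an RNA-binding zinc-finger protein (0.04 ± 0.10) and Perp, a membrane protein of desmosomes (-0.02 ± 0.19). The approximate 95% interval of the Tnfrsf10b difference ran from -0.15 to 0.27 on the log2 scale, and that of Zmat3 from -0.15 to 0.23.

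Of the 4 repair genes, none was higher and 1 was lower. Xpc, which recognises damage for nucleotide excision repair, was at 35.7, 33.1 and 37.5 CPM in the Esrrb samples, against 42.0, 44.2 and 42.9 CPM in the Nanog-null samples. It was the only list gene that fell (log2 change -0.28 ± 0.07, adjusted p = 0.00711), with no overlap between libraries. Ddb2, a sensor of ultraviolet damage, averaged 8.78 ± 0.61 and 8.65 ± 0.52 CPM in the Esrrb and Nanog-null lines, and Polk, a translesion polymerase, 18.8 ± 1.6 and 19.2 ± 1.5 CPM. Rrm2b, the p53-inducible subunit of ribonucleotide reductase, averaged 6.86 ± 0.24 CPM in the Esrrb line and 5.81 ± 0.83 CPM in the Nanog-null line (log2 difference 0.25 ± 0.14, adjusted p = 0.16). Exons of Ddb2 overlap those of Acp2 on the other strand over 23.8% of their length, and counting by strand is not stated, so the level of Ddb2 is uncertain.

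Tigar led the metabolism genes. Tigar (ENSMUSG00000038028, chromosome 6, 127085116 to 127109557), a phosphatase that turns glucose away from glycolysis, was at 96.9, 108 and 94.5 CPM in the Esrrb samples, against 55.0, 53.4 and 59.1 CPM in the Nanog-null samples (log2 change 0.84 ± 0.08, adjusted p = 7.99e-06). An antisense transcript, Platr31, overlaps 3.34% of its exons and averaged at most 0.735 CPM in any line. The sestrins, which restrain growth signalling through mTORC1, both rose, Sesn1 by 0.54 ± 0.13 and Sesn2 by 0.52 ± 0.10 on the log2 scale, as did the sugar reductase gene Dcxr, by 0.66 ± 0.14 (adjusted p = 0.00596, 0.00116 and 0.00188). Fdxr, a mitochondrial ferredoxin reductase (log2 difference 0.25 ± 0.10, adjusted p = 0.06), and Gdf15, a stress-induced cytokine (0.28 ± 0.24, adjusted p = 0.361), were not called.

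**Figure D2:**
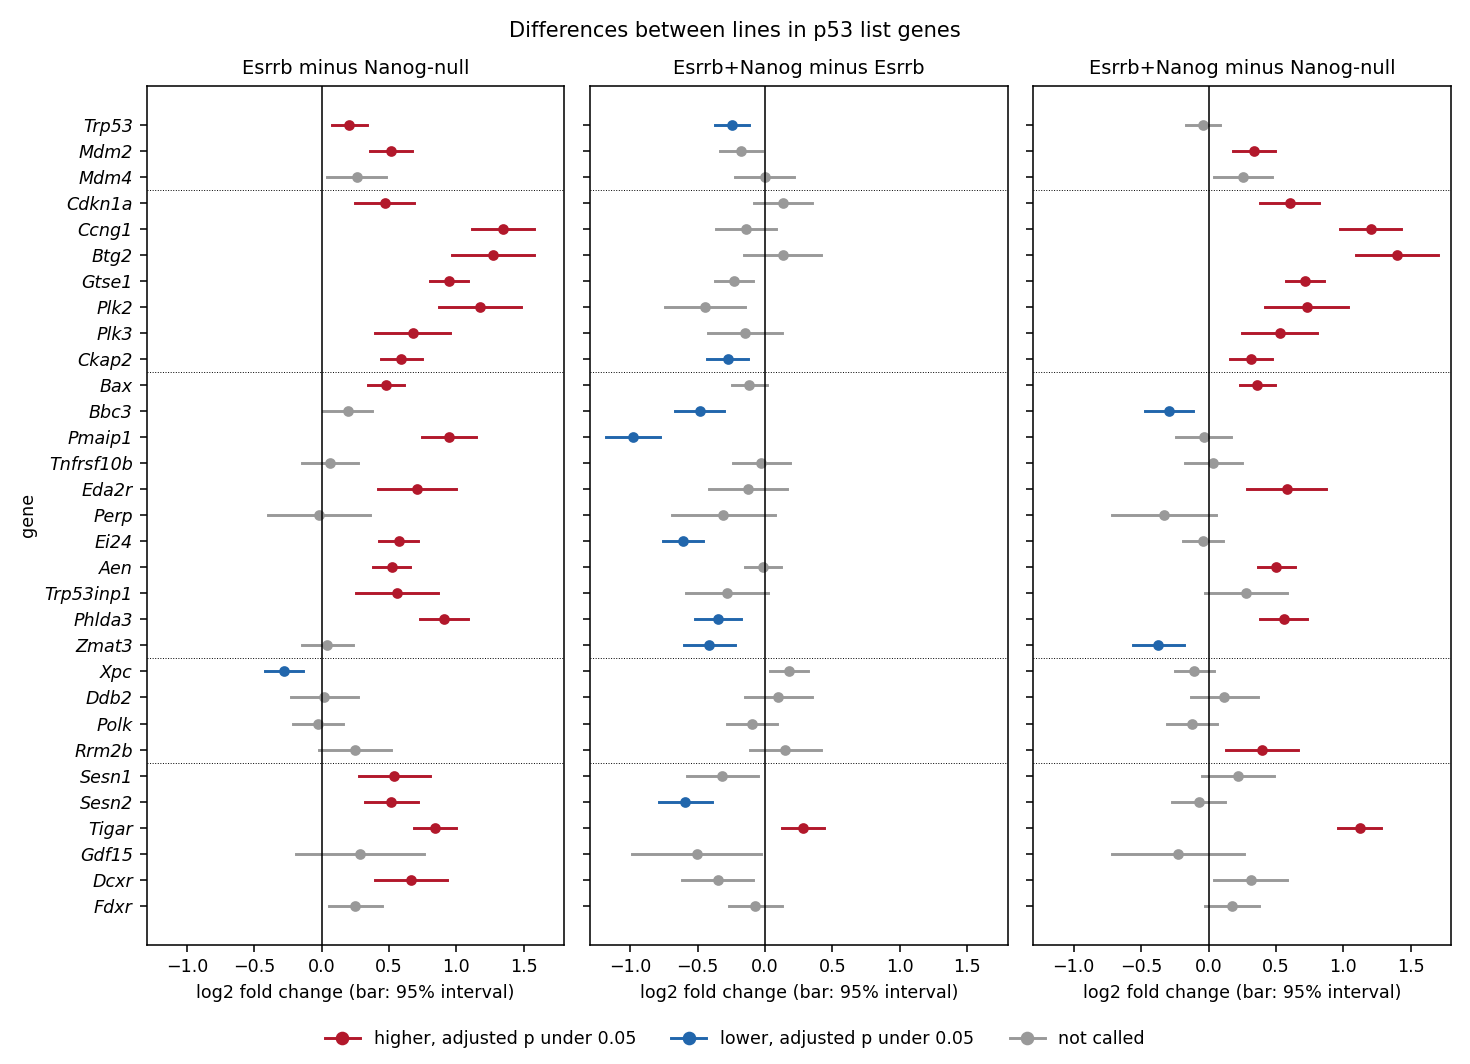
Log2 fold change of each tested p53 list gene (points) in the 3 comparisons between lines, grouped by role. Bars are approximate 95% intervals (1.96 standard errors), which are narrower than the test implies. Colours show whether the adjusted p was under 0.05. In the Esrrb against Nanog-null panel 20 genes are called higher and 1 lower, in the Esrrb+Nanog against Esrrb panel 1 higher and 8 lower, and in the Esrrb+Nanog against Nanog-null panel 14 higher and 2 lower.

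Markers of other cell types also differed between the lines. The summed level of 9 trophoblast markers was between 36.8 and 63.7 CPM in the Esrrb samples and between 101 and 251 CPM in the Nanog-null samples. Of 8 tested, 6 were lower in the Esrrb line (75%) and none higher, beside 24.2% of all tested genes called each way. Eomes was alike, with means of 7.64 CPM in the Esrrb line and 8.22 CPM in the Nanog-null line. That of 8 fibroblast markers was between 7.34 and 13.8 CPM in the Esrrb samples and between 13.7 and 83.6 CPM in the Nanog-null samples. Of 4 tested fibroblast markers, 3 were lower in the Esrrb line (75%, background 24.2%), and Thy1 was higher (mean 8.96 against 2.27 CPM). Acta2 averaged 26.0 CPM in the Nanog-null line and 0.0315 CPM in the Esrrb line. Primitive endoderm markers summed to between 131 and 177 CPM in the Esrrb samples and between 30.8 and 121 CPM in the Nanog-null samples. None of the 8 was at 0 in any library. Of 7 tested, 4 were higher in the Esrrb line (57.1%, background 24.2%), and Dab2 was lower (mean 4.73 against 11.9 CPM). Col4a1 alone averaged 108 CPM in the Esrrb line and 48.3 CPM in the Nanog-null line. Elf5 was at 0 in all Esrrb samples, as were the fibroblast markers Postn and Twist2. The part of such cells in the p53 list was not tested, and in bulk RNA fewer cells of a type and less RNA per cell cannot be told apart. Nanog-null replicate 2 was the highest of its line in all 3 of these sums. Without it 19 p53 list genes were higher and 1 lower, beside 3309 higher and 3630 lower of all genes.

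The second comparison set the Esrrb+Nanog line against Esrrb cells and so asks how p53 targets stand when Nanog is restored beside added Esrrb. Of the 31 tested genes, 8 (25.8%) were lower in the Esrrb+Nanog line, 1 was higher and 22 were not called. By the same rule 13.2% of all tested genes were called, with 7.75% lower and 5.43% higher. The 8 were Pmaip1, Ei24, Bbc3, Sesn2, Zmat3, Phlda3, Trp53 and Ckap2, of which 5 are death genes, and Tigar was the 1 that rose. The median log2 change of the list was -0.18, against -0.01 over all tested genes. In 12 of the 31 every Esrrb+Nanog library lay below every Esrrb library, as was the case for 16.7% of all tested genes, and in 2 every one lay above (14.9%). Primitive endoderm markers summed to between 71.2 and 83.7 CPM in the Esrrb+Nanog samples and between 131 and 177 CPM in the Esrrb samples, and their part in these differences was not tested.

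Pmaip1 fell most. It stood at 41.4, 44.9 and 32.5 CPM in the Esrrb+Nanog samples, against 77.2, 83.5 and 73.6 CPM in the Esrrb samples, with a wide gap between the groups (log2 change -0.98 ± 0.10, adjusted p = 0.000156). Ei24 (ENSMUSG00000062762, chromosome 9, 36779159 to 36797393) was at 115, 112 and 130.0 CPM in the Esrrb+Nanog samples and at 180.0, 171 and 193 CPM in the Esrrb samples (log2 change -0.61 ± 0.08, adjusted p = 0.000459). Sesn2 (ENSMUSG00000028893, chromosome 4, 132492032 to 132510501) was at 182, 160 and 151 CPM in the Esrrb+Nanog samples and at 252, 209 and 280 CPM in the Esrrb samples (log2 change -0.59 ± 0.10, adjusted p = 0.00278). Neither gene overlapped between the lines.

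Bbc3, not called in the first comparison, was at 41.7, 36.1 and 39.5 CPM in the Esrrb+Nanog samples, against 53.4, 49.4 and 61.4 CPM in the Esrrb samples (log2 change -0.49 ± 0.09, adjusted p = 0.00546). Pmaip1, Ei24, Bbc3 and Sesn2 were called under all 16 alternative settings. The other calls were not. Zmat3 was at 115, 116 and 123 CPM in the Esrrb+Nanog samples and at 155, 139 and 178 CPM in the Esrrb samples (log2 change -0.41 ± 0.10, adjusted p = 0.0163). Phlda3 (-0.35 ± 0.09, adjusted p = 0.0238), Trp53 (-0.25 ± 0.07, adjusted p = 0.0275) and Ckap2 (-0.28 ± 0.08, adjusted p = 0.0367) also fell. All 4 lost their call without Esrrb replicate 3. Zmat3, Trp53 and Ckap2 also lost it without Esrrb replicate 1, Zmat3, Phlda3 and Ckap2 without Esrrb+Nanog replicate 2, Phlda3, Trp53 and Ckap2 without Esrrb+Nanog replicate 1, Trp53 and Ckap2 without Esrrb replicate 2 or Nanog-null replicate 3, and Phlda3 and Ckap2 without Esrrb+Nanog replicate 3 (highest adjusted p 0.113).

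Tigar was at 110, 122 and 132 CPM in the Esrrb+Nanog samples, against 96.9, 108 and 94.5 CPM in the Esrrb samples, without overlap (log2 change 0.28 ± 0.08, adjusted p = 0.037). It lost its call in a fit of these lines alone and when replicate 1 or 3 of the Esrrb line or replicate 2 or 3 of the Esrrb+Nanog line was left out (highest adjusted p 0.134). Without Esrrb replicate 3, 4 list genes were lower and none higher, beside 836 lower and 542 higher of all genes. Without Esrrb replicate 1 or without Esrrb+Nanog replicate 2, 5 were lower and none higher. Of all genes, 710 were lower and 395 higher without the former, and 729 lower and 486 higher without the latter. With library totals as the only scaling 5 list genes were lower and 1 higher, beside 941 lower and 1386 higher of all genes. That scaling also moved the share of called genes that were higher, over all genes, to 59.6%, against 41.2% with the scaling used here.

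Apart from Ckap2, edgeR called no cell cycle gene between the Esrrb+Nanog and Esrrb lines. Their log2 differences were -0.14 ± 0.11 for Ccng1, 0.13 ± 0.15 for Btg2, 0.13 ± 0.11 for Cdkn1a, -0.15 ± 0.14 for Plk3, -0.23 ± 0.07 for Gtse1 (adjusted p = 0.0549) and -0.45 ± 0.15 for Plk2 (adjusted p = 0.0769). Gtse1 and Plk2 were called lower by DESeq2 (adjusted p = 0.0352 and 0.0396) and by edgeR without the low-count filter (0.023 and 0.000118). By edgeR, Plk2 was also called lower without Nanog-null replicate 2 (0.045) and with the replicate number as a block (0.0477). The 95% interval of the Ccng1 difference ran from -0.36 to 0.08 and that of Cdkn1a from -0.08 to 0.35. Among death genes Aen differed by -0.02 ± 0.07 and Bax by -0.12 ± 0.07. None of the 4 repair genes was called by edgeR or DESeq2, and 1 of them, Xpc, had an unadjusted p under 0.05 (log2 difference 0.18 ± 0.07, adjusted p = 0.136 by edgeR).

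**Figure D3:**
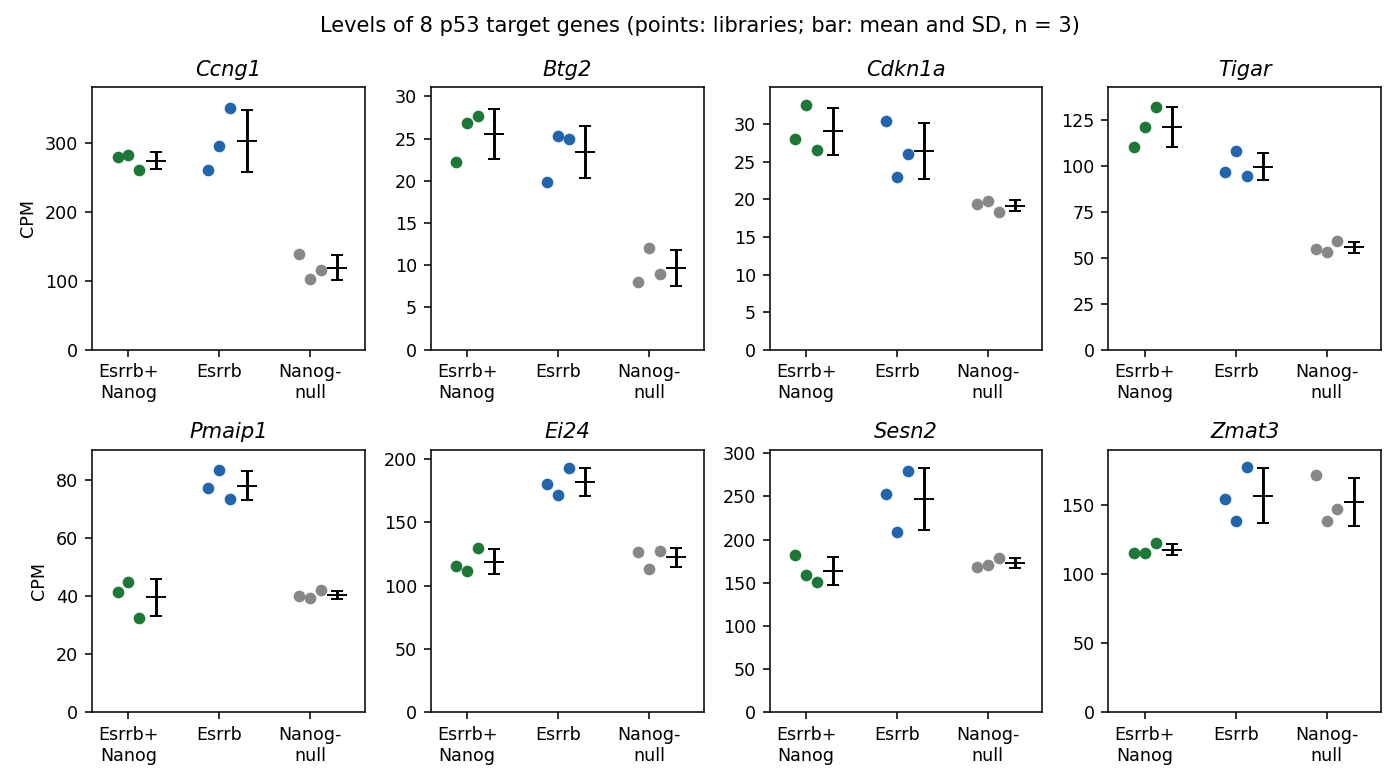
CPM of 8 p53 target genes in each library (points) with the mean and SD of 3 libraries (bars) for the Esrrb+Nanog, Esrrb and Nanog-null lines. Ccng1, Btg2, Cdkn1a and Tigar are high in both lines with added Esrrb, Pmaip1, Ei24 and Sesn2 are high in the Esrrb line, and Zmat3 is low in the Esrrb+Nanog line.

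The third comparison set the Esrrb+Nanog line against Nanog-null cells and shares libraries with both others. Here 14 of the 31 (45.2%) were higher, 2 were lower and 15 were not called. Over all tested genes 54.4% were called, with 27.2% higher and 27.2% lower. The 7 cell cycle genes were again all higher, with 4 of 11 death genes (Aen, Phlda3, Bax and Eda2r), Mdm2, Rrm2b and Tigar. Bbc3 and Zmat3 were lower. The median log2 change was 0.28 for the list and 0.00 over all tested genes. In 16 of the 31 every Esrrb+Nanog library lay above every Nanog-null library (31.2% of all tested genes), and in 2 every one lay below (30.7%). Trophoblast markers summed to between 49.8 and 57.4 CPM in the Esrrb+Nanog samples and between 101 and 251 CPM in the Nanog-null samples, and their part in these differences was not tested.

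The largest changes were those of Btg2, at 22.2, 26.8 and 27.7 CPM in the Esrrb+Nanog samples and 8.02, 12.1 and 8.97 CPM in the Nanog-null samples (log2 change 1.40 ± 0.16, adjusted p = 1.66e-05), Ccng1 (1.20 ± 0.12, adjusted p = 6.18e-06) and Tigar (1.12 ± 0.08, adjusted p = 6.82e-07). Cdkn1a was at 28.1, 32.5 and 26.6 CPM in the Esrrb+Nanog samples, against 19.4, 19.7 and 18.3 CPM in the Nanog-null samples, again without overlap (log2 change 0.60 ± 0.11, adjusted p = 0.000753). Mdm2 rose by 0.34 ± 0.08 on the log2 scale (adjusted p = 0.00391), while Trp53 was not called (-0.04 ± 0.07, 95% interval -0.17 to 0.09, adjusted p = 0.606).

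Pmaip1, Ei24 and Sesn2, called in both other comparisons, were not called here. Pmaip1 averaged 39.6 ± 6.4 CPM in the Esrrb+Nanog line and 40.6 ± 1.4 CPM in the Nanog-null line, and the 95% interval of its log2 difference ran from -0.24 to 0.17. In the Esrrb+Nanog and Nanog-null lines Ei24 averaged 119 ± 9.8 and 122 ± 7.7 CPM, and Sesn2 averaged 164 ± 16 and 173 ± 5.6 CPM. Bbc3 averaged 39.1 ± 2.8 CPM in the Esrrb+Nanog line and 47.9 ± 3.3 CPM in the Nanog-null line (log2 change -0.29 ± 0.09, adjusted p = 0.0182), a call that ended without Nanog-null replicate 2 or 3 or Esrrb+Nanog replicate 2. Zmat3 averaged 118 ± 4.1 CPM in the Esrrb+Nanog line and 153 ± 17 CPM in the Nanog-null line (-0.37 ± 0.10, adjusted p = 0.00653). Rrm2b averaged 7.62 ± 0.71 CPM in the Esrrb+Nanog line and 5.81 ± 0.83 CPM in the Nanog-null line (0.39 ± 0.14, adjusted p = 0.0283). The Rrm2b call ended without Nanog-null replicate 2 or 3, without Esrrb+Nanog replicate 1 or 2, and with no low-count filter (highest adjusted p 0.111).

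Side by side, the 3 comparisons sorted the genes into several patterns. The commonest, higher in both lines with added Esrrb than in the Nanog-null line and not called between those lines, was that of 10 genes (32.3%), against 17.2% of all tested genes. They were Mdm2, Cdkn1a, Ccng1, Btg2, Gtse1, Plk2, Plk3, Bax, Eda2r and Aen. A further 4, Trp53, Pmaip1, Ei24 and Sesn2, were higher in the Esrrb line than in either other line and not called between those (12.9%, against 1.22% of all tested genes). Bbc3 and Zmat3 were lower in the Esrrb+Nanog line than in either other line (6.45%, against 2.35%). Trp53inp1, Sesn1 and Dcxr were called only as higher in the Esrrb than in the Nanog-null line (9.68%, against 3.1%). By the calls, Ckap2 and Phlda3 were highest in the Esrrb line and lowest in the Nanog-null line (6.45%, against 0.969%). Tigar was higher in all 3 comparisons (3.23%, against 1.49%). Rrm2b was called only in the third, as higher (3.23%, against 5.35%), and Xpc only in the first, as lower (3.23%, against 3.09%). Mdm4, Tnfrsf10b, Perp, Ddb2, Polk, Gdf15 and Fdxr were called in no comparison (22.6%, against 36.5%). Mdm4 was less settled than this. Over the Nanog-null line it was called higher under 4 of the 16 alternative settings in the Esrrb line. In the Esrrb+Nanog line it was called higher under 6 of the 16. Fdxr (Esrrb against Nanog-null) and Gdf15 (Esrrb+Nanog against Esrrb) each gained a call under 1 setting. As the comparisons share libraries, these shares describe the calls and were not tested.

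**Figure D4:**
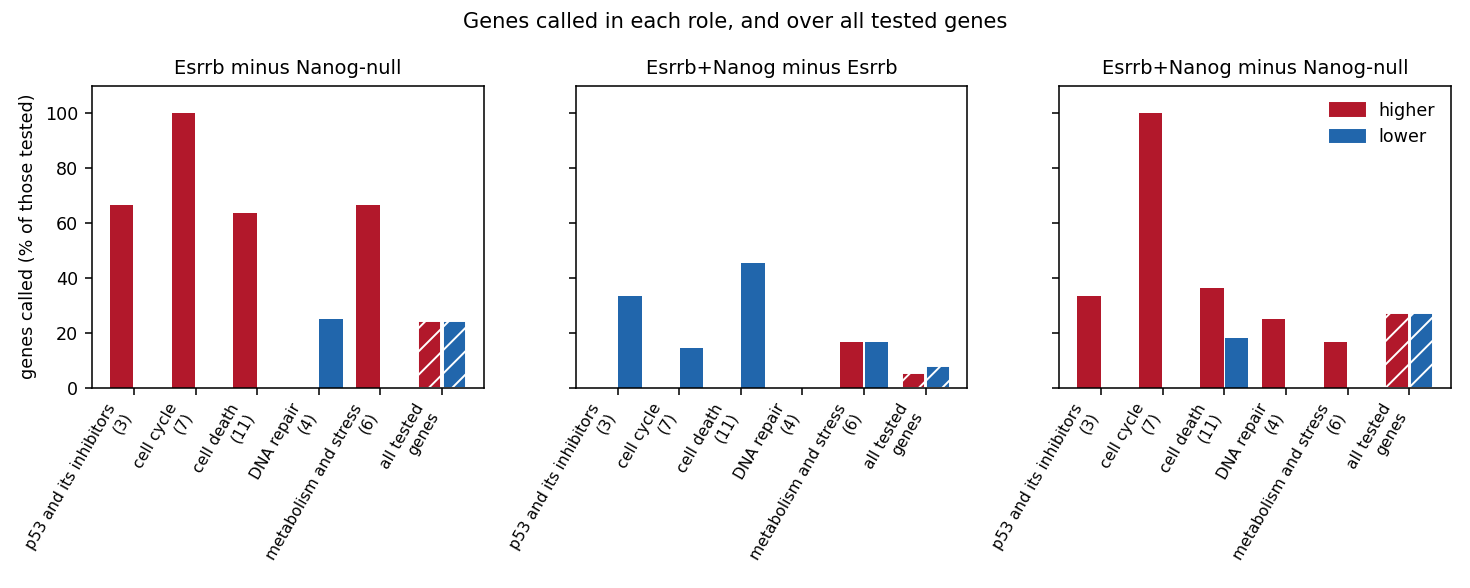
Share of tested genes called higher (red) or lower (blue) in each role of the p53 list, with the number tested in brackets, and over all 16198 tested genes (hatched), in the 3 comparisons between lines. All 7 cell cycle genes are higher in both comparisons with the Nanog-null line, and 5 of 11 death genes are lower in the Esrrb+Nanog line than in the Esrrb line.

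The calls were also counted by whether a listed window held the half-site, without a test of the difference. In the first comparison 10 of 11 with it were higher in the Esrrb line, all but Polk, as were 8 of 12 tested genes without it and 24.2% of all tested genes. In the second, 3 of 11 with it and 3 of 12 without it were lower in the Esrrb+Nanog line, beside 7.75% of all tested genes. In the third, 7 of 11 with it and 6 of 12 without it were higher in the Esrrb+Nanog line, beside 27.2% of all tested genes.

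Within a line the p53 list did not vary alike in all libraries. Esrrb replicate 3 was the highest of its line for 18 of the 31 genes (58.1%, against 38.6% of all tested genes), and Esrrb replicate 1 for 1 (3.23%, against 25.4%). Trp53inp1, for example, was at 263, 241 and 393 CPM in the Esrrb samples. Nanog-null replicate 2 was the lowest of its line for 18 genes (58.1%, against 36.9%). Without Esrrb replicate 3, 21 list genes were called higher in the Esrrb line than in the Nanog-null line, Fdxr among them, and 1 lower. Of all genes, 3817 were then higher and 3825 lower.

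Other genes of the p53 pathway were read from further lists. Of 39 tested p53 targets outside the list, 20 (51.3%) were higher and 7 (17.9%) lower in the Esrrb line than in the Nanog-null line, beside the background of 24.2% each way. The 3 with the smallest adjusted p were Ak1, an adenylate kinase, at 47.1 ± 3.3 CPM in the Esrrb line and 17.5 ± 1.3 CPM in the Nanog-null line (log2 change 1.43 ± 0.09), Aldh4a1, an enzyme of proline breakdown (1.01 ± 0.08), and Steap3, a metalloreductase that fell to 11.3 ± 2.6 CPM in the Esrrb line, against 53.3 ± 4.0 CPM in the Nanog-null line (-2.24 ± 0.19, adjusted p = 3.41e-06). In the Esrrb+Nanog line 8 of the 39 were lower (20.5%) and 2 higher (5.13%) than in the Esrrb line. Over all tested genes these shares were 7.75% and 5.43%. The smallest adjusted p belonged to the ephrin receptor gene Epha2 (-0.47 ± 0.07), the epoxide hydrolase gene Ephx1 (-1.04 ± 0.16) and the microtubule regulator gene Psrc1 (-0.50 ± 0.08). Against the Nanog-null line, 17 of the 39 were higher (43.6%) and 10 lower (25.6%) in the Esrrb+Nanog line, beside a background of 27.2% each way.

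Of 18 kinases and stabilisers upstream of p53, 2 were higher and 2 lower in the Esrrb line than in the Nanog-null line, 11.1% each way beside the background of 24.2%. The kinase gene Hipk2 was lower, at 21.0 ± 2.5 CPM in the Esrrb line and 47.1 ± 6.1 CPM in the Nanog-null line (log2 change -1.16 ± 0.14, adjusted p = 3.46e-05), and Hipk1 (0.40) and Nbn (0.31), a sensor of double-strand breaks, were higher. In the Esrrb+Nanog line 9 of the 18 (50%, background 27.2%) were lower than in the Nanog-null line and 1 was higher (5.56%, background 27.2%). The lowest adjusted p there belonged to Hipk2 (log2 change -1.52 ± 0.14), the ribosomal protein gene Rpl5 (-0.33 ± 0.06) and the deubiquitinase gene Usp7 (-0.31 ± 0.06). Between the Esrrb+Nanog and Esrrb lines 4 were lower (22.2%, background 7.75%), led by Usp7 (-0.26), Hipk1 (-0.24) and Rps7 (-0.19), and none was higher. At an unadjusted p under 0.05, for which no share of all genes was counted, 7 were lower and 1 higher by edgeR. DESeq2 called 5 lower and none higher, beside 1436 lower and 1008 higher of all 16198 tested genes.

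Among 12 genes known to restrain p53, 4 were higher (33.3%) and 1 lower (8.33%) in the Esrrb line than in the Nanog-null line, with a background of 24.2% each way. The deacetylase gene Sirt1 averaged 339 ± 27 CPM in the Esrrb line and 173.5 ± 16 CPM in the Nanog-null line (log2 change 0.97 ± 0.08, adjusted p = 2.68e-06), the ubiquitin ligase gene Trim24 rose by 0.37 ± 0.06, and the methyltransferase gene Smyd2 fell to 10.7 ± 1.2 CPM, against 25.3 ± 0.69 CPM in the Nanog-null line. In the Esrrb+Nanog line 1 of the 12 (8.33%, background 7.75%), the ubiquitin ligase gene Mkrn1, was lower than in the Esrrb line (-0.39 ± 0.05 on the log2 scale, adjusted p = 0.000844). Against the Nanog-null line 3 were higher and 3 lower (25% each, background 27.2% each way). Of 16 tested relatives and cofactors of p53, 6 were higher (37.5%) and 2 lower (12.5%) in the Esrrb line than in the Nanog-null line, where 24.2% of all tested genes were called each way. Among them were Hexim1 (0.63 ± 0.07) and the acetyltransferase gene Kat2b (0.61 ± 0.08), which rose, and Trp53bp1, a repair adaptor that binds p53, which fell to 107 ± 7.2 CPM, against 158 ± 8.2 CPM in the Nanog-null line (-0.56 ± 0.07, adjusted p = 4.88e-05). In the Esrrb+Nanog line 2 of the 16 were higher (12.5%, background 5.43%) and 3 lower (18.8%, background 7.75%) than in the Esrrb line. Compared with the Nanog-null line, 5 were higher (31.2%) and 4 lower (25%), beside a background of 27.2% each way.

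Around the death genes, 2 of 12 tested members of the BCL2 family outside the p53 list were higher (16.7%) and 5 lower (41.7%) in the Esrrb line than in the Nanog-null line, against 24.2% each way over all tested genes. The pro-death BH3-only gene Bcl2l11 fell to 20.6 ± 2.5 CPM in the Esrrb line, against 52.8 ± 3.1 CPM in the Nanog-null line (log2 change -1.36 ± 0.13, adjusted p = 5.59e-06). The pro-survival gene Mcl1 rose by 0.47 ± 0.06 and its relative Bcl2l2 fell by 0.76 on the log2 scale. The Esrrb+Nanog line had 3 higher (25%) and 5 lower (41.7%) than the Nanog-null line, beside a background of 27.2% each way. Against the Esrrb line it had 2 lower (Bmf and Mcl1, 16.7%, background 7.75%) and none higher. Of 6 other CDK inhibitor genes, 1 was higher (Cdkn2d, 0.36 ± 0.11) and 1 lower (Cdkn1c, -0.75 ± 0.20) in the Esrrb line than in the Nanog-null line. That is 16.7% each way, beside 24.2% of all tested genes, and 6 genes are too few to set these apart. The counts were the same in the Esrrb+Nanog line, beside 27.2% of all tested genes each way. Between the Esrrb+Nanog and Esrrb lines neither edgeR nor DESeq2 called any of the 6. At an unadjusted p under 0.05, for which no share of all genes was counted, 1 was lower. Of the 20 mitotic genes, 2 were higher (10%) and 7 lower (35.0%) in the Esrrb+Nanog line than in the Nanog-null line, beside a background of 27.2% each way. None was called by edgeR between the Esrrb+Nanog and Esrrb lines, where 7 were lower at an unadjusted p under 0.05. DESeq2 called 3 of the 20 lower there, beside 1436 of all 16198 tested genes.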

How the data were processed

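RNA from PECAM-positive, PDGFRA-negative cells was depleted of ribosomal RNA before library preparation, per the labels' protocols. The authors deposited raw read counts, whole and not normalised, with genes in rows by Ensembl ID and 1 column per library, per the file headers. The submitters' processing notes name bcl2fastq 2.19.1, STAR 2.5.3a and build mm10, and no annotation or strand setting is given in the sources used here. Of 15 columns, 6 matched no sample here and were not used. Symbols, positions and exon lengths came from GENCODE M21 (mm10).

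Counts were tested with edgeR 4.0.16 (R 4.3.3): default low-count filter, trimmed mean of M values factors, and a quasi-likelihood model of the 9 libraries by line, without covariates, adjusted by the Benjamini-Hochberg method over 16198 genes at 0.05. Adjusted p-values come from this test where no other is named. Standard errors were worked back from the F statistic. All 95% intervals span 1.96 of them, the normal quantile, and are approximate, being narrower than the test implies. For Bbc3 between the Esrrb and Nanog-null lines the interval was 0.01 to 0.37, with an unadjusted edgeR p of 0.0586. CPM has no pseudocount. Limits from low counts cover counting error only. All list members are described, with the 3 smallest adjusted p of each further list. The members and lists were chosen with earlier results of these data known. Alternatives were median-of-ratios factors, library totals, DESeq2 1.42.0, no filter, at least 5 CPM in 3 libraries, only the lines compared, the replicate number as a block, and each library left out. The procedure was tested on simulated data.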

Additional observations from a re-analysis of the deposited data

How the results depend on the processing

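No called log2 change of a p53 list gene changed sign under any of the 16 alternatives, whereas some differences near 0 that were not called did, such as that of Perp between the Esrrb and Nanog-null lines (-0.19 to 0.26). Of 1488 gene and setting values, 1422 kept their call, 41 lost it and 25 gained it, and 19 of the 20 rises in the Esrrb line over Nanog-null cells were called throughout. That comparison kept 19 to 21 higher and 1 lower in all alternatives, beside 2806 to 4068 higher and 3069 to 4323 lower of all genes. Calls between the Esrrb+Nanog and Esrrb lines were the least stable. With library totals alone, 5 list genes were lower, beside 941 of all genes, and 1386 genes of all were higher. In a fit of these lines alone no list gene was higher, beside 727 of all genes. The cause was not tested. Leaving out each library in turn gave 0 to 1 list genes higher and 4 to 9 lower there, with 395 to 955 of all genes higher and 710 to 1421 lower. Against the Nanog-null line, 1 to 2 list genes were lower in the Esrrb+Nanog line when a library was left out, beside 3855 to 4577 of all genes.

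The correlations do not settle whether the replicate numbers pair the libraries. Deviations from the line means correlated over 0.1 in 3 of 9 same-numbered pairs. Same-numbered pairs ran from -0.03 to 0.28, and pairs with different numbers from -0.33 to 0.22. Of 9 libraries, 4 matched their own number best in both other lines. With the replicate block, 21 list genes were higher in the Esrrb line than in the Nanog-null line, 9 were lower in the Esrrb+Nanog than in the Esrrb line, Plk2 among them (adjusted p = 0.0477 by edgeR), and 15 were higher in the Esrrb+Nanog than in the Nanog-null line. Of all 16198 genes, the same fit called 3975 higher, 1387 lower and 4462 higher in these comparisons. With 3 libraries a line no sample could be tested as an outlier, and Fas was too low to compare.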
